A study of Mus musculus with 8 samples.

Results

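The receptors for interleukin-2 (IL-2), IL-4, IL-7, IL-9, IL-15 and IL-21 share a subunit, the common gamma chain, and the transcripts of this receptor family were measured by RNA seq in Th17 cells that carried either of 2 forms of ROR-γt. The members were set by gene name and not by a measured value, but earlier results of these data were known when the family was chosen. It holds 8 genes. Il2rg encodes the common chain, and Il2ra, Il2rb, Il4ra, Il7r, Il9r, Il15ra and Il21r encode the chains that pair with it. All 8 were among the 22829 genes listed and among the 16982 genes tested, those with a mean of at least 10 over the 8 samples.

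ROR-γt is the transcription factor that directs the Th17 program and IL-17 production in T cells. In the K187R form a lysine that receives the small protein SUMO is replaced by arginine, so that this form is defective in SUMOylation. CD4+ T cells from the spleens of ROR-γt−/− mice were given WT-ROR-γt or K187R-ROR-γt by lentivirus and cultured under Th17-inducing conditions, with 4 samples of each form. By the labels of the samples both groups therefore lacked their own ROR-γt, and the form put back was the only difference the labels name. The description of the series speaks instead of mutant and WT mice, and which wording holds for the RNA was not resolved, so the sample labels were followed. There was no sample of untransduced cells, the Th17 cells came from culture and not from tissue, and the age and sex of the animals, and any selection of transduced cells, were not given in the sources used here. Neither the labels nor the methods say whether the samples of a group came from separate animals or cultures. The p-values therefore measure the spread between these samples, and how much of it is technical was not tested. The samples of neither group were alike in Xist, an RNA of the inactive X chromosome. It measured 10.1 to 17290 normalized counts with WT-ROR-γt and 3.56 to 17373 with K187R-ROR-γt.

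The common gamma chain has little affinity for cytokine by itself. A private chain binds the cytokine, the gamma chain completes the receptor, and the kinases JAK1 and JAK3 on the paired chains then activate STAT5 (IL-2, IL-7, IL-9, IL-15), STAT6 (IL-4) or STAT3 (IL-21). In T cells Il2ra is known to rise with activation and to mark regulatory T cells, whereas Il7r marks resting and memory cells and falls with activation. IL-2 acting through STAT5 restrains Th17 differentiation, and IL-21, a product of Th17 cells, acts through STAT3.

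The members lie at the following positions of GRCm38, as annotated by GENCODE M21, each as a protein-coding gene. Il2ra (ENSMUSG00000026770, chr2:11642807-11693193, plus strand) and Il15ra (ENSMUSG00000023206, chr2:11705290-11734317, plus strand) are neighbours 12096 bases apart. Il4ra (ENSMUSG00000030748, chr7:125552120-125579474, plus strand) and Il21r (ENSMUSG00000030745, chr7:125603429-125633570, plus strand) are likewise neighbours, 23954 bases apart. Il2rb (ENSMUSG00000068227, chr15:78479256-78495271) and Il7r (ENSMUSG00000003882, chr15:9505788-9530176) lie on the minus strand, as do Il9r (ENSMUSG00000020279, chr11:32187541-32200279) and Il2rg (ENSMUSG00000031304, chrX:101264378-101268255). Of the exonic bases of Il2rg, 30.5% are shared with the same-strand gene model Gm20489, so its count is uncertain by the reads that could not be given to either gene. Of those of Il4ra, 9.51% lie opposite Gm44876, and whether counting used the strand is not given in the sources used here. Both overlapping models had few reads, 0.871 to 6.73 normalized counts for Gm20489 and 0.961 to 8.71 for Gm44876.

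Promoters are shown for 2 members, Il2ra because it was the highest and among the most variable of the 8, and Il21r because it was the only member whose window held the ROR hexamer. Each is the 250 bases before the RefSeq start of the gene, taken 5′ to 3′ from GRCm38.p6 on the plus strand, at chr2:11642542-11642791 for Il2ra and chr7:125603179-125603428 for Il21r. Capitals mark TGACCT, the reverse complement of AGGTCA, the hexamer bound by ROR factors and by other nuclear receptors.
Il2ra: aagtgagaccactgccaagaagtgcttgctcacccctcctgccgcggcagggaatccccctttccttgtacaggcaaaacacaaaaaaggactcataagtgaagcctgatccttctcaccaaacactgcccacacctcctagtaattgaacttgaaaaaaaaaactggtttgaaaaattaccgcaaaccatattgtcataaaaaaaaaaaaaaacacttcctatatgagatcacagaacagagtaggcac
Il21r: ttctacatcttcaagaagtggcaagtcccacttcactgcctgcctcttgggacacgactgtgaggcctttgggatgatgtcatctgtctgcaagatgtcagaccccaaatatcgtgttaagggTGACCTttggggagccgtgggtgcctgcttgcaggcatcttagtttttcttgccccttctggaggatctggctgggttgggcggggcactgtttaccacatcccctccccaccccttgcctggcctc
AGGTCA was searched on both strands, as was TTCNNNGAA, the palindrome bound by STAT5 and other STAT factors. RefSeq windows were at hand for 7 of the 8 members, with 8 windows in all. The ROR hexamer occurred in the Il21r window alone, beginning at position -127 from the start, and it occurs in 14.0% of the 32851 windows of this length. The STAT palindrome occurred in the Il7r window alone, at position -142, and occurs in 7.02% of all windows. All 250 bases of that window lie inside the Il7r gene as GENCODE annotates it, so the match is within the annotated gene. A match describes letters in the window and no binding was measured.

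The deposited values are reads per gene divided by a size factor per sample, called normalized counts. Reads counted on genes ranged from 52456804 to 74676721 per sample with WT-ROR-γt and from 54260345 to 67827288 with K187R-ROR-γt, and 3 reads, the smallest count taken as detectable, equalled 2.54 to 3.56 normalized counts. Il17a, the cytokine gene that ROR-γt drives, measured 2087 to 4653 with WT-ROR-γt and 3528 to 6075 with K187R-ROR-γt, so that the groups overlapped. The T cell markers Lck, Trac and Cd3e were the highest of a list of 10, all measured. Markers of other cells were present too, the sum of 8 myeloid markers, led by Lyz2, ranging from 20924 to 64794. No marker of the 6 cell types examined had a limma adjusted p under 0.05, and neither had any of the 16982 genes tested.

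The libraries were clustered and the clustering was cut into 3 sets, each of which held both forms of ROR-γt. The sets were found by clustering 16943 genes from which the receptor family and the genes of its pathway had been left out, and 43.1% of the variance of these genes lay on the first principal component and 29.0% on the second. Set 1 held WT replicates 1 and 3 and K187R replicate 1, set 2 held WT replicate 2 and K187R replicates 2 and 3, and set 3 held replicate 4 of each form. Set 1 thus held more WT and set 2 more K187R samples, so that set and form were partly confounded. Xist, the RNA made from an inactive X chromosome, measured 13564 to 17373 in the samples of set 2 and 3.56 to 23.7 in the others. The labels name no batch, and what the sets stand for was not tested. For the receptor family and the pathway genes named with a fold change, differences are therefore given over all samples and within each set.

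On a scale adjusted for length (TPM, the reads per base of exon of a gene as a share of those of all genes, set to the same total in every sample), Il2ra stood far above the other chains. Its mean level over the 8 samples was 837 and its range 617 to 1235, which places it at percentile 99.3 of the genes tested. Il2rb followed at 322 (268 to 355), Il2rg at 262 (230 to 304), Il21r at 231 (202 to 261) and Il4ra at 207 (178 to 235). Neighbours among these last 4 overlapped in their ranges, Il2rb being above Il2rg in 7 of 8 samples, Il2rg above Il21r in 6 of 8 and Il21r above Il4ra in 6 of 8. The level of Il7r was 60.2 (46.5 to 79.9), that of Il15ra 5.33 (4.18 to 7.46) and that of Il9r 0.403 (0.282 to 0.600), at percentile 7.42. The steps from Il2ra to Il2rb (2.60-fold), from Il4ra to Il7r (3.45-fold), from Il7r to Il15ra (11.3-fold) and from Il15ra to Il9r (13.2-fold) were the ones at which the ranges did not overlap.

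**Figure D1:**
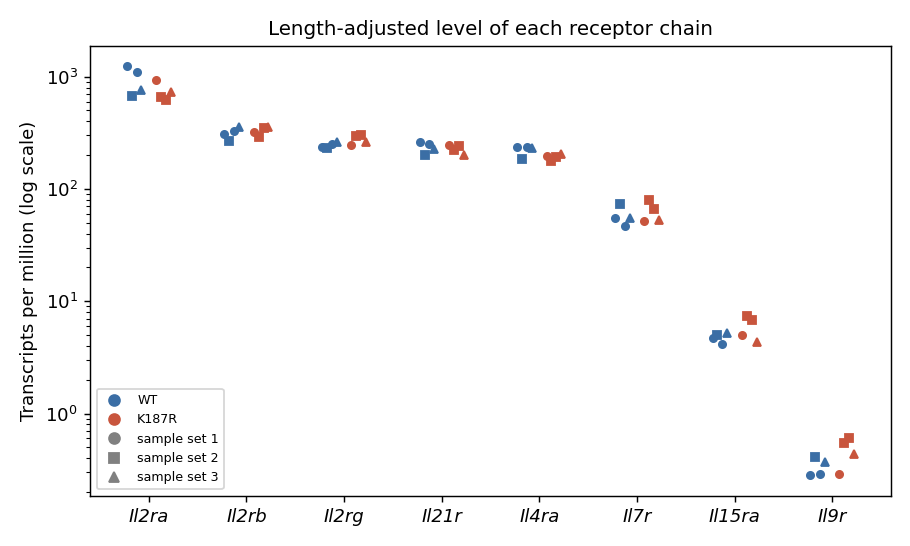
Length-adjusted level (TPM) of each receptor chain on a log scale, with a point for each of the 4 WT and 4 K187R samples and a symbol for each sample set. Il2ra lies highest, with a mean of 837, the chains Il2rb, Il2rg, Il21r and Il4ra overlap between 178 and 355, and Il9r lies lowest, with a mean of 0.403.

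None of the 8 chains differed between the forms of ROR-γt beyond the spread between samples. With limma, 0 of 8 members had an adjusted p under 0.05, and 0 of the 16982 genes tested did (0.0%). At an unadjusted p under 0.05 limma called 746 genes (4.39%; 2.75% higher and 1.64% lower with K187R-ROR-γt), 0 of them members. edgeR called 0 genes (0.0%) after adjustment, 729 having an unadjusted p under 0.05, and DESeq2 called 31 (0.183%), with 0 members among them in either, and limma with the sample set as a term called 1 gene (0.00589%), no member. The values of the groups overlapped for every member, whereas 417 genes (2.46%) did not overlap, 1.47% lying higher and 0.989% lower with K187R-ROR-γt. Of the 8 log2 fold changes 5 were positive and 3 negative, with a median of 0.08 against -0.0062 over all genes tested, and their median size was 0.18 against 0.12. Since 0.0286 is the smallest p that exact permutation of 4 against 4 samples can give, a single gene could have passed an unadjusted threshold of 0.05.

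Il2rg, which encodes the common gamma chain, measured 10637, 10478, 12110 and 11672 normalized counts in WT replicates 1 to 4 and 10993, 13125, 14171 and 12041 in K187R replicates 1 to 4. The K187R samples of set 2, replicates 2 and 3, lay above every WT sample, and the other K187R samples lay within the WT range. The means were 11224 ± 793 and 12582 ± 1371 (SD, n = 4 each). The log2 fold change was 0.16 (SE 0.0918, 95% interval -0.045 to 0.37, limma adjusted p = 0.921, exact two-sided permutation p = 0.143). The difference within sets 1, 2 and 3 was -0.046, 0.38 and 0.045. Without the 3 libraries of set 2 the log2 fold change was 0.0062. Il2rg lies on the X chromosome, and the part of the Xist difference between the sets in this value was not tested.

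Il2ra, the alpha chain that raises the affinity of the receptor for IL-2, varied 1.92-fold from its lowest to its highest sample. It measured 132086, 72628, 128382 and 80266 in WT replicates 1 to 4 and 99073, 68686, 68677 and 80643 in K187R replicates 1 to 4. All 4 K187R samples lay below the WT mean, but WT replicates 2 and 4 lay among them, so that the groups overlapped. The means were 103341 ± 31247 with WT-ROR-γt and 79270 ± 14356 with K187R-ROR-γt (SD, n = 4 each), a fold of 0.786. The log2 fold change was -0.35 (SE 0.214, 95% interval -0.83 to 0.13, limma adjusted p = 0.921, exact two-sided permutation p = 0.229). Compared inside each set, K187R-ROR-γt gave -0.39 (set 1), -0.081 (set 2) and 0.0068 (set 3), and a fit with the sample set as a term gave -0.17.

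The level of Il2ra followed the sample sets. Its values ran from 99073 to 132086 in set 1, from 80266 to 80643 in set 3 and from 68677 to 72628 in set 2, with no overlap, and 89.5% of its variance lay between the sets against 23.4% between the forms of ROR-γt. Over all genes tested the median share between sets was 51.6% and that between forms 9.11%. Because set and form were partly confounded, these shares overlap and do not divide the variance between them. Markers of regulatory T cells did not all move alike across the sets. Foxp3, their defining transcription factor, ran in the order of Il2ra, at 13524 to 17297 in set 1, 11144 to 12367 in set 3 and 6121 to 7574 in set 2. Ikzf2, named after its values were seen, was above all other samples in set 2, at 3443 to 4553 against 1569 to 2869, and Nrp1 overlapped, at 3809 to 4672 against 2765 to 4132. Gpr83 and Lrrc32 were, like Il2ra, highest in set 1, at 3362 to 3901 and 3587 to 4385. Elsewhere they measured 1399 to 1757 and 1986 to 3093. Of the 7 markers 1 was below and 1 above all other samples in set 2 and 5 overlapped. The log2 difference of set 2 from the others was -1.02 for Foxp3, -0.74 for Gpr83 and -0.55 for Lrrc32. It was -0.30 for Ctla4 and -0.20 for Tnfrsf18, but 1.07 for Ikzf2 and 0.43 for Nrp1. The summed level of the 7 regulatory T cell markers, led by Ctla4, Foxp3 and Nrp1, was 34387 to 50972 with WT-ROR-γt and 33348 to 41900 with K187R-ROR-γt. By set, this sum was 41900 to 50972 in set 1, where Il2ra was highest, and 33348 to 39048 in all other samples. None of these 7 genes had a limma adjusted p under 0.05, and neither had any other gene tested. Of the 7, 2 had an unadjusted limma p under 0.05, beside 4.39% of all genes tested. Ctla4 measured 13494 to 18551 with WT-ROR-γt and 10094 to 11599 with K187R-ROR-γt, so that the groups did not overlap. This held for 2.46% of all genes. Nrp1 ran the other way and overlapped, at 2765 to 3809 with WT-ROR-γt and 3296 to 4672 with K187R-ROR-γt. The sum of the 8 myeloid markers ranged from 20924 to 61801 with WT-ROR-γt and from 35643 to 64794 with K187R-ROR-γt. It was lowest, 20924 to 35643, in the set where Il2ra was highest. Lyz2 made up most of that sum, and Csf1r, Cd14, Cd68 and Cd163 overlapped between that set and the other samples. The part of either cell type in the level of Il2ra was not tested, and in RNA from bulk cultures fewer cells of a type and less RNA per cell cannot be told apart.

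Il2rb, the signalling chain of the IL-2 and IL-15 receptors, was nearly level. It measured 24858, 21856, 28542 and 28135 in the WT samples and 26091, 22869, 28884 and 29236 in the K187R samples, each in the order of replicates 1 to 4. WT replicate 2 and K187R replicate 2 were the lowest of their groups. The means were 25848 ± 3130 and 26770 ± 2957 (SD, n = 4 each), and the log2 fold change was 0.05 (SE 0.111, 95% interval -0.20 to 0.30, limma adjusted p = 0.959). Its 3 differences within sets were -0.030, 0.23 and 0.055.

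The ratio of alpha to beta chain describes how much Il2ra each sample held beside the signalling chain. On the length-adjusted scale Il2ra was 3.99-, 2.49-, 3.38- and 2.14-fold the level of Il2rb in WT replicates 1 to 4 and 2.85-, 2.25-, 1.78- and 2.07-fold in K187R replicates 1 to 4. The samples of set 1 had the highest ratio of their groups, and the groups overlapped. Il2ra made up 45.9% ± 6.41 of the summed level of the 8 chains with WT-ROR-γt and 39.8% ± 4.94 with K187R-ROR-γt (SD, n = 4 each).

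Il15ra, which binds IL-15 and can present it to neighbouring cells, measured 389.7, 422, 376 and 430.5 in WT replicates 1 to 4 and 415, 611, 589 and 372 in K187R replicates 1 to 4. The K187R samples of set 2 were the only ones above 430.5, and the lowest sample of all was K187R replicate 4. The means were 405 ± 25.8 and 496 ± 121 (SD, n = 4 each). The log2 fold change was 0.26 (SE 0.173, 95% interval -0.12 to 0.65, limma adjusted p = 0.921, exact two-sided permutation p = 0.343). Within sets 1, 2 and 3 it was 0.11, 0.51 and -0.21, and without the libraries of set 2 the log2 fold change was -0.021. Il15ra and its neighbour Il2ra differed in opposite directions between set 2 and the other samples, by 0.43 and -0.54 on the log2 scale.

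Il7r, the alpha chain of the IL-7 receptor, measured 4854, 6523, 4389 and 4801 in WT replicates 1 to 4 and 4545, 6855, 5994 and 4722 in K187R replicates 1 to 4. The samples of set 2 were the 3 highest, at 5994 to 6855 against 4389 to 4854 in all others. The means were 5142 ± 944 and 5529 ± 1095 (SD, n = 4 each), and the log2 fold change was 0.10 (SE 0.160, 95% interval -0.26 to 0.46, limma adjusted p = 0.942). Within the sets the difference was small and negative, -0.022, -0.025 and -0.024. A mean lower with K187R-ROR-γt in all 3 sets was found for 9.42% of the genes tested, and Il7r and Il4ra were the members for which it held. No member had every K187R sample below, or every one above, each WT sample of its set in all 3 sets, which 4.93% and 8.94% of the genes did.

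Of the variance of Il7r 93.2% lay between the sets and 4.54% between the forms. Il2ra and Il7r thus ran in opposite directions across the sets, Il2ra being below and Il7r above all other samples in set 2. Among all genes tested 5.65% were below and 8.46% above in this way. The length-adjusted level of Il2ra was 17.8- to 23.9-fold that of Il7r in set 1, 13.7- and 13.9-fold in set 3 and 8.18- to 9.36-fold in set 2.

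**Figure D2:**
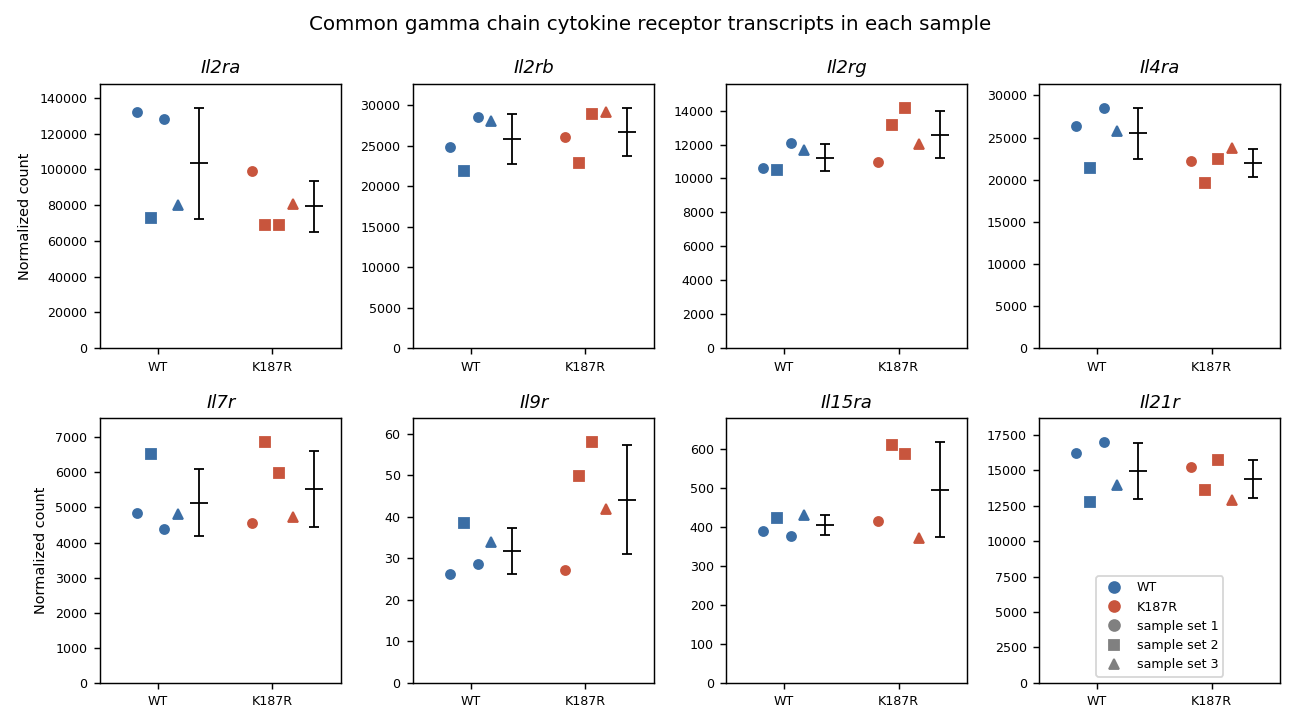
Normalized counts of the 8 receptor genes in every sample, with WT in blue and K187R in red, a symbol for each sample set, and the mean ± SD of each group as a bar (n = 4). The groups overlap in all 8 panels; Il2ra is lowest and Il7r highest in the 3 samples of set 2.

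Il4ra, the chain that binds IL-4 and, with Il13ra1, IL-13, had the smallest p-value of the family. It measured 26323, 21347, 28553 and 25764 in WT replicates 1 to 4 and 22212, 19651, 22423 and 23718 in K187R replicates 1 to 4. All 4 K187R samples lay below the WT mean, and WT replicate 2 lay below 3 of them. The means were 25497 ± 3017 and 22001 ± 1702 (SD, n = 4 each), a fold of 0.866. The log2 fold change was -0.21 (SE 0.100, 95% interval -0.43 to 0.017, limma unadjusted p = 0.0661, adjusted p = 0.921, exact two-sided permutation p = 0.114). The mean was lower with K187R-ROR-γt in all 3 sets, by -0.30, -0.024 and -0.12 on the log2 scale, and 57.3% of its variance lay between sets and 39.3% between forms.

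Il21r, the receptor for the IL-21 that Th17 cells release, measured 16222, 12766, 16974 and 13935 in WT replicates 1 to 4 and 15259.6, 13586, 15740.3 and 12924 in K187R replicates 1 to 4. The groups overlapped over nearly their whole range. The means were 14974 ± 1959 and 14377 ± 1339 (SD, n = 4 each), and the log2 fold change was -0.054 (SE 0.107, 95% interval -0.30 to 0.19, limma adjusted p = 0.956). Within sets 1, 2 and 3 the difference was -0.12, 0.20 and -0.11. Il21r and its neighbour Il4ra were both higher in set 1 than in set 2, at mean values of 16152 against 14031 for Il21r and 25696 against 21140 for Il4ra, with values of the sets overlapping for both.

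Il9r, the receptor for the mast cell and T cell growth factor IL-9, was read from 22 to 55 reads per sample, so that its counting error was the widest of the family. It measured 26.1, 38.5, 28.8 and 34.0 normalized counts in WT replicates 1 to 4 and 27.1, 49.9, 57.9 and 41.8 in K187R replicates 1 to 4. K187R replicates 2, 3 and 4 lay above every WT sample, and K187R replicate 1 lay among them. The means were 31.8 ± 5.49 and 44.2 ± 13.2 (SD, n = 4 each), a fold of 1.34. The log2 fold change was 0.42 (SE 0.274, 95% interval -0.19 to 1.04, limma adjusted p = 0.921, exact two-sided permutation p = 0.143). It was -0.016, 0.47 and 0.29 within sets 1, 2 and 3, and 0.19 without the libraries of set 2.

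Summed markers of mast cells and basophils, and of myeloid cells, shared with Il9r their lowest values in set 1. The summed level of 5 mast cell and basophil markers, led by Cpa3, Kit and Mcpt8, was 1318, 4732, 1240 and 3315 in WT replicates 1 to 4 and 1745, 4507, 4271 and 4908 in K187R replicates 1 to 4. The samples of set 1 were lowest in this sum, in Il9r and in the sum of the 8 myeloid markers, at 20924 to 35643 against 43890 to 64794 in the others. Beyond set 1 the courses differed. Il9r had a mean of 48.8 in set 2 and 37.9 in set 3. The myeloid sum was 43890 to 50026 in set 2 and 61801 and 64794 in set 3. Within set 2 Il9r was higher with K187R-ROR-γt and the mast cell and basophil sum lower, and within set 3 both were higher. Lyz2, with a mean of 36565, made up most of the myeloid sum, and not every marker was lowest in set 1. Csf1r, Cd14, Cd68 and Cd163 overlapped between set 1 and the other samples, as did Kit of the mast cell list. Cd14 measured 376 to 676 in set 1, 407 and 448 in set 3 and 869 to 1058 in set 2. Kit measured 611 to 890 in set 1 against 649 and 747 in set 3. The other markers of both lists were lowest in set 1. None of the 5 mast cell and basophil markers was at or under 3 reads in every sample, and the part of either cell type in the Il9r count was not tested. Il9r was the member whose values spanned more than 1 on the log2 scale, 1.12 from lowest to highest, and the genes with the most similar course over the 8 samples, among 13360 genes with a mean of at least 50, were Tgm2, Pik3ap1 and Ctsz. Their centred log2 values differed from those of Il9r by a root mean square of 0.084, 0.089 and 0.11, where Il9r itself varied by 0.38.

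**Figure D3:**
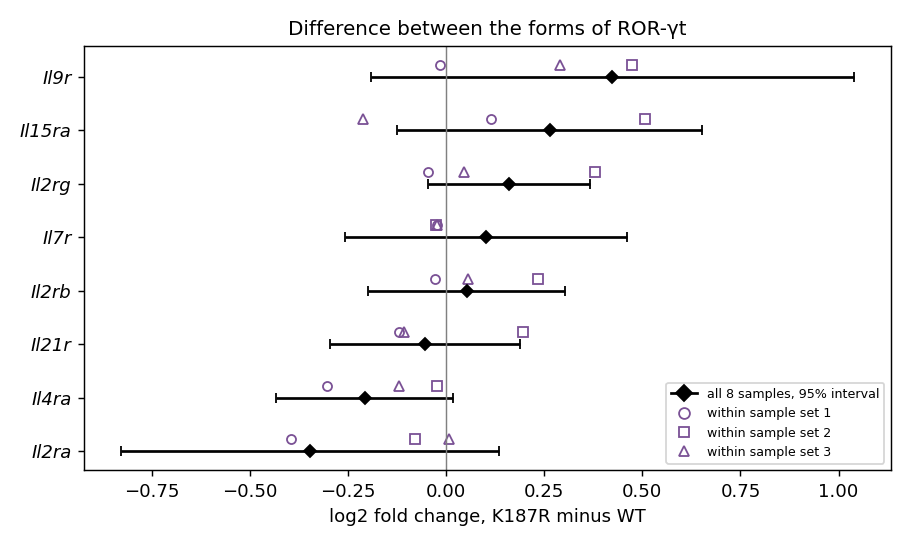
Log2 fold change of each receptor gene, K187R minus WT, with the limma estimate over all 8 samples and its 95% interval in black and the difference within each sample set as open symbols. Every interval includes 0, and the estimates run from -0.35 for Il2ra to 0.42 for Il9r.

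The cytokines, partner chains, kinases, STAT factors and target genes of these receptors did not differ between the forms beyond the spread between samples either. Of 34 genes listed, 31 were tested, Il7 and Tslp had a mean under 10, and Il13ra2 was not analysed here. None of the 31 had a limma adjusted or unadjusted p under 0.05, edgeR and DESeq2 called none of them after adjustment, and the groups overlapped for all 31. Their log2 fold changes were positive for 18 and negative for 13, with a median of 0.07 and a range from -0.37 for Cish to 0.46 for Prdm1.

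Among 6 ligands tested, 5 log2 fold changes were positive and 1 negative. Il2 measured 360, 133, 293 and 213 in WT replicates 1 to 4 and 236, 188, 127 and 241 in K187R replicates 1 to 4. Like Il2ra it was lowest in the samples of set 2 and highest, in WT, in those of set 1. Il15 had a log2 fold change of 0.40 (SE 0.225, limma adjusted p = 0.921) at a low level, 30.9 to 41.3 normalized counts with WT-ROR-γt and 37.3 to 56.5 with K187R-ROR-γt, and Il4 one of 0.35 (SE 0.491, limma adjusted p = 0.934), which was -0.091 without WT replicate 4. Within sets 1, 2 and 3 the difference was 0.70, 0.20 and 0.24 for Il15 and -0.024, 0.26 and 0.69 for Il4. Il21 had the highest length-adjusted level of the ligands, and its normalized counts ran from 1475 to 3335 with WT-ROR-γt and from 1593 to 3371 with K187R-ROR-γt, and replicate 4, the sample of set 3, was lowest in each group. Il9 measured 17.8 to 50.6 in the samples of sets 1 and 2, and in those of set 3 it measured 2.61 and 1.78, at or below 3 reads.

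The partner chains tested were Il13ra1, which joins Il4ra in the type II IL-4 receptor, and Crlf2, which joins Il7r in the receptor for TSLP. Their log2 fold changes were 0.25 (SE 0.250, limma adjusted p = 0.923) and 0.16 (SE 0.200, limma adjusted p = 0.930). Inside sets 1, 2 and 3 Il13ra1 differed by 0.41, -0.23 and -0.045 and Crlf2 by 0.22, 0.39 and -0.33. With the sample set as a term the value of Il13ra1 was 0.056, and with single libraries left out Crlf2 ran from 0.031 (without WT replicate 1) to 0.35 (without WT replicate 4) and Il13ra1 from 0.12 (without WT replicate 3) to 0.49 (without WT replicate 2). Il13ra1 was above all other samples in set 2, at 498 to 601 against 277 to 378. Of the 9 kinases and STAT factors, 5 log2 fold changes were positive and 4 negative, the largest being 0.19 (SE 0.173) for Jak3, the kinase bound to the gamma chain, and 0.14 (SE 0.110) for Tyk2, with limma adjusted p-values of 0.922 and 0.921. Jak3 differed by 0.050, 0.67 and -0.36 inside sets 1, 2 and 3 and Tyk2 by 0.13, 0.24 and -0.15, and without the libraries of set 2 the value of Jak3 was -0.075.

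Of the 14 target genes 6 log2 fold changes were positive and 8 negative, with a median of -0.03. Cish, a feedback inhibitor induced through STAT5, measured 12369, 5696, 13823 and 9072 in WT replicates 1 to 4 and 8702, 6579, 7572 and 7371 in K187R replicates 1 to 4. As for Il2ra, all 4 K187R samples lay below the WT mean of 10240, WT replicates 1 and 3 lay above all others, and the groups overlapped (log2 fold change -0.37, SE 0.244, limma adjusted p = 0.921). Inside sets 1, 2 and 3 Cish differed by -0.59, 0.31 and -0.30, and with the sample set as a term by -0.18. Prdm1, which encodes the repressor Blimp-1, measured 484, 1201, 476 and 512 with WT-ROR-γt and 624, 1335, 1226 and 499.7 with K187R-ROR-γt. Its 3 samples of set 2 lay above all others, and the log2 fold change between the forms was 0.46 (SE 0.390, limma adjusted p = 0.921). It was 0.38, 0.092 and -0.036 within sets 1, 2 and 3, and 0.16 with the sample set as a term.

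Of the 14 target genes 3 were above and 2 below all other samples in set 2, and the other 9 overlapped. Prdm1, Bcl6, which opposes Prdm1, and Gata3, the Th2 factor, were above all other samples in set 2, and Socs2, a STAT5-induced inhibitor, and the survival gene Bcl2 were below. Socs2 measured 4693 to 5054 in set 2 and 9422 to 11283 elsewhere, and Bcl2 measured 10774 to 12939 against 16347 to 22799. Over the 31 pathway genes tested, 5 were above and 3 below, and Il7r and Il2ra were the members on either side, beside 8.46% and 5.65% of all genes.

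**Figure D4:**
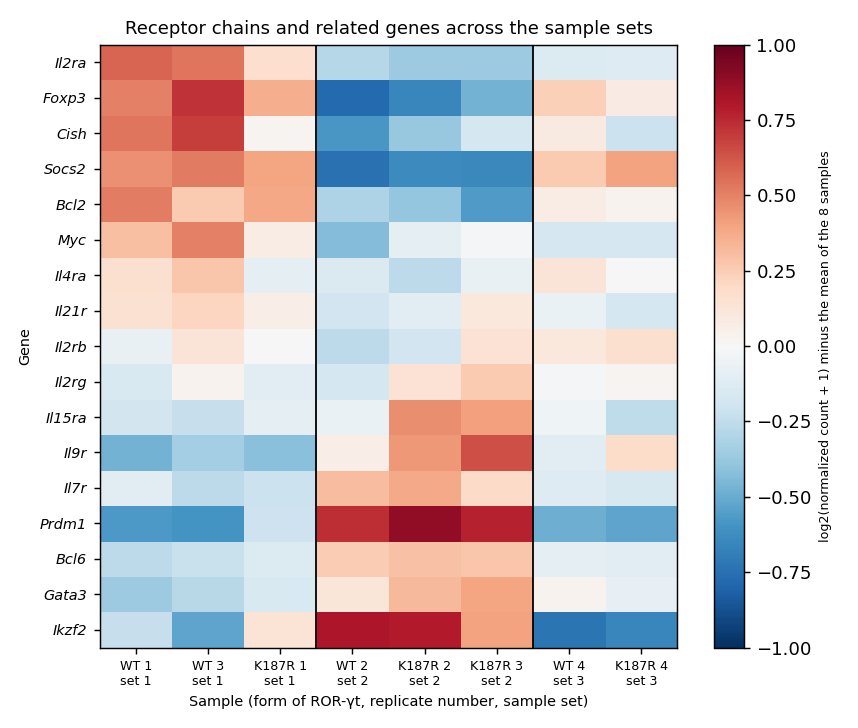
Receptor chains and selected pathway and marker genes as log2(normalized count + 1) minus the mean of the 8 samples, shown in colour from blue (low) to red (high), with samples grouped by sample set. Il2ra, Foxp3, Socs2 and Bcl2 are lowest, and Il7r, Prdm1, Bcl6, Gata3 and Ikzf2 highest, in the 3 samples of set 2, whichever form of ROR-γt they carried. The pathway and marker genes shown were picked by hand and do not stand for their lists. Of all 31 pathway genes tested, 5 were above and 3 below all other samples in set 2. Of the 7 regulatory T cell markers 1 was above and 1 below, beside 8.46% and 5.65% of all genes.

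Receptors outside the family are given for scale, in lists whose results were known beforehand and with no test between lists. Of 5 chains of the IL-6, IL-12 and IL-23 receptors, 2 had an unadjusted limma p under 0.05, and the median log2 fold change was 0.19. Of 7 chains of the IL-1 and IL-18 receptor families, 3 had an unadjusted p under 0.05, 2 did not overlap between the groups, and the median was 0.49. Of the common gamma chain family, 0 of 8 had either, and over all genes tested the shares were 4.39% and 2.46%, so that a count of 0 among 8 is near the background. No gene of the 3 families passed the limma adjusted threshold, the smallest adjusted p being 0.344.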

How the data were processed

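RNA from 8 samples of Th17 cells, 4 with WT-ROR-γt and 4 with K187R-ROR-γt, was made into poly-A libraries and read as paired ends on a NextSeq 500 (the labels name another library kit than the paper). The authors trimmed with Cutadapt, aligned with HiSat2 to GRCm38, counted with featureCounts on GENCODE M15 and used DESeq2, whose size factors, recomputed here from the reads, equal the deposited ones. For each gene the deposited signal is its reads over a size factor of the sample (0.842 to 1.18). Dividing by what 1 read was worth gave whole reads for 100% of values within 0.01 of a read, and 3 reads mark the counting floor. Intervals and floors cover counting error only where they rest on reads.

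Groups and replicate numbers came from the labels. The main test was limma (lmFit, eBayes with trend) on log2(normalized count + 1). It took in 16982 genes, each with a mean of 10 or more, with Benjamini-Hochberg adjustment over all of them and a threshold of 0.05, and exact two-sided permutation of the mean log2 difference over 70 regroupings for single genes. Fold changes on this scale are understated for low genes. On the recovered reads edgeR called 0 genes and DESeq2 called 31. Length-adjusted levels used the union of exons of GENCODE M21, in which 22784 of the 22829 identifiers were found. Promoter windows are from RefSeq (GRCm38.p6). Genes named are all members, all genes of the pathway lists, the 3 highest of each marker list, the 3 closest courses to any member with a log2 range of at least 1, and Il17a and Xist as checks. Some results are not reported here. Marker sums other than those given ranged from 178807 to 227828 for 10 T cell genes, 1905 to 3278 for 8 CD8 T and NK cell genes and 396 to 1870 for 8 B cell genes. An unadjusted limma p under 0.05 was found for 1, 1 and 0 genes of these lists and for 0 of the myeloid and 0 of the mast cell and basophil genes. The share over all genes tested was 4.39%. Members and lists were chosen with earlier results of these data known. Sample sets were seen in the data.

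On simulated counts for 16982 genes in 4 against 4 samples, 200 of them changed by 2 on the log2 scale, limma recovered 98%, edgeR 98.5% and DESeq2 98.5%, and 3.92%, 4.37% and 19.3% of their calls were unchanged genes. The changed genes all had higher means than Il9r, and the simulated samples held no sample sets. Changes of the size estimated for the members, at most 0.42, were not simulated, so these shares do not give the power to find them. Statistics used limma 3.58.1, DESeq2 1.42.0 and edgeR 4.0.16 under R 4.3.3. Tables and plots were made with pandas 2.3.3, matplotlib 3.10.9, scipy 1.17.1 and numpy 2.4.6 under Python 3.11.15.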

Additional observations from a re-analysis of the deposited data

Results flagged for a closer look

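Of 78 groups of 4 samples examined over the receptor and pathway genes, 3 held a sample far from its group, where chance alone gives about 1 in 20, or 3.9. Prdm1 in WT replicate 2 measured 1201 normalized counts, the other WT samples 476 to 512. This was the only WT sample of set 2, in which Prdm1 measured 1201 to 1335, against 476 to 624 in all others. Ccnd2, the gene of cyclin D2, in K187R replicate 1 measured 52345, the other K187R samples 44397 to 45415. That sample was the only K187R sample of set 1, in which Ccnd2 measured 52345 to 58866, against 40562 to 45415 in all others. Stat6 in K187R replicate 3 measured 14385, the other K187R samples 12520 to 12835.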

How the results depend on the processing

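No member had an adjusted p under 0.05 under any of the alternatives run: a pseudocount of 5 or 0.5, a minimum mean of 50 (which leaves Il9r out) or no minimum, quantile and TMM normalization, edgeR, DESeq2 (which gives no adjusted p for Il9r), the sample set or the replicate number as a term, and each sample left out. Il2ra, Il2rg, Il4ra and Il9r kept their direction in every one that gave a value. Over all genes the number called was 0, but 31 with DESeq2 (17 higher, 14 lower), 1 with the sample set and 0 to 4 with a sample left out, 4 being the number without WT replicate 4.

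The replicate numbers share no stated animal or culture. For each gene the mean of the group was subtracted, and these deviations, not the levels themselves, were correlated over genes. Deviations of same-numbered samples correlated at 0.59, 0.66, -0.09 and 0.63. Those of WT replicate 3 correlated best with number 1, so the pairs are not taken as such. With the replicate block DESeq2 called 174 genes (117 higher, 57 lower), and limma and edgeR called 0 (2046 and 1930 at an unadjusted p under 0.05). With this block 3 members had an unadjusted p under 0.05 in limma (Il2ra, Il2rg, Il4ra), and 2 had one in edgeR and in DESeq2 (Il2rg, Il4ra), beside 12.05%, 11.4% and 10.4% of all genes, the smallest adjusted p of a member being 0.0968 for Il4ra in DESeq2. With a sample left out, 0 to 2 members had an unadjusted p under 0.05: Il2ra and Il4ra without WT replicate 2 (8.56% of all genes), Il2rg and Il9r without K187R replicate 1 (4.92%), and Il15ra without K187R replicate 4 (6.28%).

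With a sample left out, the log2 fold change ran from -0.026 to 0.13 for Il2rb, from -0.0098 to 0.22 for Il7r, from -0.13 to 0.0094 for Il21r, from -0.091 to 0.67 for Il4, from 0.070 to 0.33 for Jak3, from 0.074 to 0.24 for Tyk2, from 0.24 to 0.78 for Prdm1 and from -0.62 to -0.20 for Cish. With the sample set that of Il7r was -0.024. Leaving out whole sets was added after seeing the data. Without the 3 libraries of set 2 the log2 fold change was -0.014 for Il7r, -0.021 for Il15ra and -0.075 for Jak3. Without the 2 libraries of set 3, 4 genes were called and 1 member, Il15ra, had an unadjusted p under 0.05, as did 11.5% of all genes. What caused the changes was not tested. Depth limits the genes with the fewest reads, Il9r among the members.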
